A study of Mus musculus with 8 samples.

Results

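The 10 genes described here encode subunits of the cohesin ring (Smc3, Rad21, Stag1, Stag2), the pair that loads it on DNA (Nipbl, Mau2), the factors that release it or hold it in place (Wapl, Pds5a, Pds5b) and the insulator protein CTCF (Ctcf). They were chosen by name, and all 10 were found among the 37980 genes of the table and passed the filter on low values. RNA was measured in multipotent progenitors (MPPs) of C57BL/6 mouse bone marrow, sorted as Lin-CD48-ckit+Sca1+CD135+CD150- cells, in 4 NA and 4 WT libraries of 1000 cells each. NA mice carried the NUP98-HOXA10hd fusion gene (NA), which joins part of a nuclear pore protein to the DNA-binding homeodomain of HOXA10, behind a stop cassette at the Rosa26 locus. Vav-Cre, which acts throughout the blood system, removed the cassette (NA LSL/+; Vav-Cre). The WT cells came from CD45.2 mice matched in age. The age itself is not given, nor whether the WT mice carried Vav-Cre, nor whether the libraries of a group came from separate mice, so p-values measure only the spread between these samples. Libraries are named by group and number, as NA1 or WT4.

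Cohesin is a ring of SMC1A, SMC3 and RAD21 that encircles DNA, with either STAG1 or STAG2 bound to it. It is loaded with the help of NIPBL and MAU2, extrudes chromatin into loops that CTCF halts at its binding sites, and is released by WAPL, while the PDS5 proteins help both to release and to keep it. The same ring holds sister chromatids together until cell division. In blood, cohesin genes such as STAG2, RAD21 and SMC3 are known as recurrent targets of mutation in myeloid malignancies.

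Several facts of the whole series touch the values below. Hoxa10 averaged 324 normalised counts in NA and 139 in WT libraries (log2 fold change 1.22, limma, adjusted p = 2.57e-05), although reads of the fusion and of the native gene were not separated. A normalised count is an estimated read count divided by the size factor of its library. Depth was 3876908 to 4916947 estimated reads per library. The gate genes Kit, Ly6a, Flt3 and Cd34 were all detected, with a summed level of 7337 to 7655 in NA and 7486 to 7891 in WT libraries. Of these, Ly6a was lower in NA, at 1277 against 1548 (limma, adjusted p = 0.0257). Cd48, whose protein the sort selects against, averaged 17.7 in NA and 56.1 in WT libraries (limma, adjusted p = 0.00711). Slamf1, which encodes CD150 and is also selected against, averaged 19.66 in NA and 20.85 in WT libraries, with overlap (limma, adjusted p = 0.57). The sexes of the groups differed in these data: Xist averaged 1.92 in NA and 1104 in WT libraries, and the Y-linked Ddx3y averaged 515 in NA and 0.222 in WT libraries, so sex and genotype cannot be told apart. In each group the fourth library lay closer to a weighted mean of the other 3 than the variance between the others allows for a separate library. The variance beyond counting error that remained was 0.00921 in NA4 against a lower limit of 0.0129 for a separate library, and 0.00284 in WT4 against 0.0108. In WT1 it was 0.012 against 0.0197, with all of the weight on WT4. Results are therefore also given without NA4 and WT4.

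The loading genes had the highest log2 fold changes of the 10. In limma on log2(normalised count + 1), with Benjamini-Hochberg adjustment over 11451 tested genes and a threshold of 0.05, 3 of the 10 genes passed, all higher in NA MPPs: Mau2, Nipbl and Rad21. Of all tested genes, 17.9% passed in either direction and 10.1% passed as higher in NA. No member passed as lower in limma, against 7.87% of all tested genes, and none did in limma-voom on estimated reads. None was lower at an unadjusted p under 0.05 (0 of 10), a share that was not taken by direction over all tested genes. A further 7 did not pass, of which Ctcf and Wapl were under 0.05 before adjustment, so that 5 members were, against 32.5% of all tested genes in either direction. The median log2 fold change was 0.205 over the 10 genes and -0.011 over all tested genes, with 7 members higher and 3 lower. With the trend on transcript GC content removed it was 0.0452 over the 10 genes, with 5 higher and 5 lower, and -0.0134 over all tested genes. Without NA4 and WT4, Mau2 alone passed. In bulk libraries such as these, fewer cells of a type and less RNA per cell cannot be told apart.

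**Figure D1:**
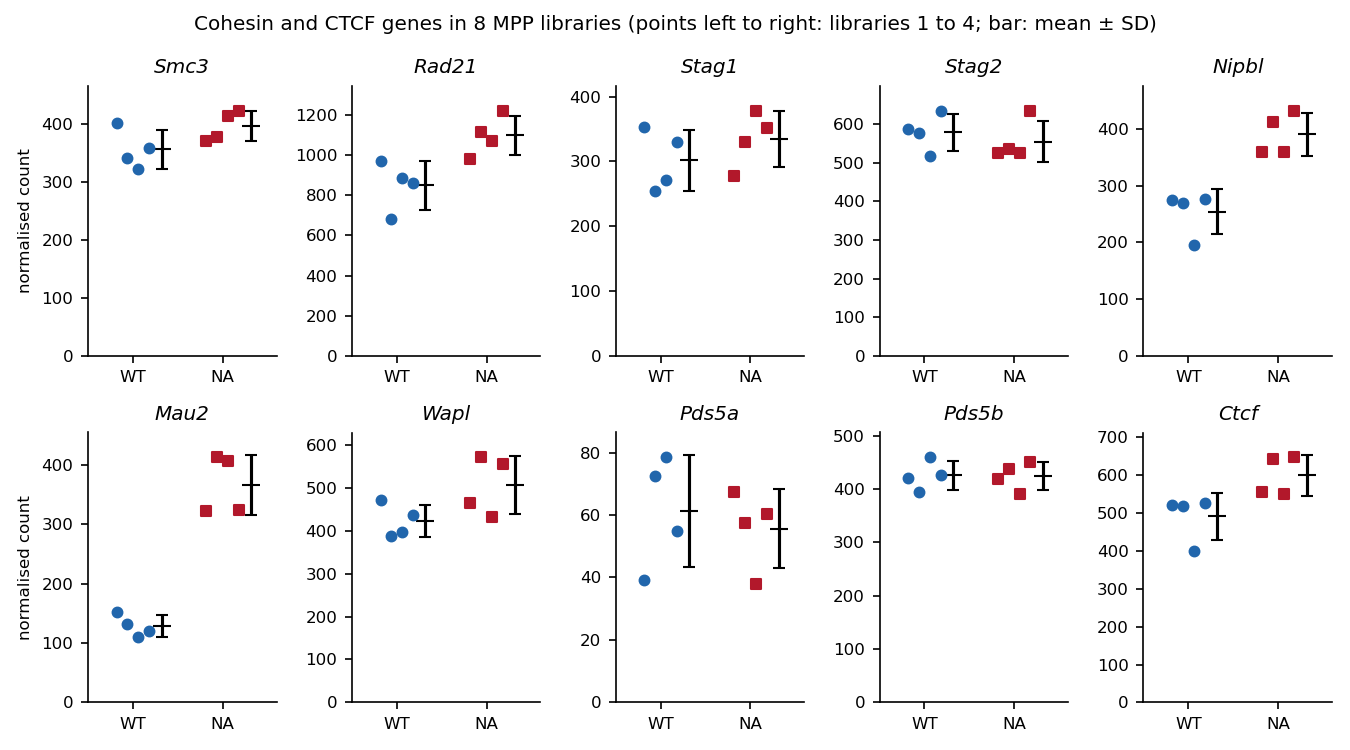
Normalised count (vertical axes from 0, a separate scale for each gene) of the 10 cohesin and CTCF genes in the 4 WT libraries (blue circles) and the 4 NA libraries (red squares), with bars for the mean ± SD. The groups do not overlap for Mau2, Nipbl, Rad21 and Ctcf.

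Mau2 (ENSMUSG00000031858, chr8:70016123-70042734, minus strand, mm10) encodes the partner that binds and stabilises NIPBL in the loading complex. It was at 322, 414, 407 and 324 normalised counts in NA1 to NA4, and at 152, 132.5, 110.4 and 121 in WT1 to WT4. Every NA library was above every WT library, with NA2 and NA3 the highest and WT3 the lowest. The means were 367 ± 50.6 and 129 ± 17.8 (SD, n = 4 each), a ratio of 2.85. On the log2 scale the change was 1.5 (SE 0.146, 95% interval 1.19 to 1.81, limma, adjusted p = 1.42e-05), and it ranked 214 among the 11451 tested genes from the highest change down. Without NA4 and WT4 it was 1.53 (limma, adjusted p = 0.000559). It passed the threshold in all 23 alternative settings, with log2 fold changes from 1.43 to 1.58.

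Mau2 begins 78 bases from Sugp1, which lies on the opposite strand (chr8:70042813-70072347) and encodes a protein with the SURP and G-patch domains of splicing factors. The stretch between both annotated starts is shown because, of the genes that share it, Mau2 passed the test and Sugp1 did not. It is read on the strand of Mau2, 5′ to 3′, from the RefSeq promoter table (GRCm38.p6, chr8:70042735-70042812), and ends at the base before the start of Mau2. The capitals mark its longest palindrome, a stretch that reads the same on both strands.
Mau2 to Sugp1: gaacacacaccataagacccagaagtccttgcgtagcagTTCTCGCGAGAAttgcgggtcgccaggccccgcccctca
The stretch had 60.3% G and C and 6 CpG. The palindrome has 12 bases, the first of them 39 bases before the start of Mau2, and it was searched for after the sequence was seen. Over the 250 bases before each start it occurred in 9 of 32851 RefSeq promoters (0.0274%), and its inner 10 bases TCTCGCGAGA occurred in 128 (0.39%). Both were taken from the Mau2 window, so their presence there was fixed beforehand. Neither occurred in any other of the 8 windows that matched 7 members, and Rad21, Stag2 and Nipbl had no entry. The CTCF core motif, the posterior HOX core TTTATNG and the ETS core CCGGAAG, searched on both strands, occurred in 2.07%, 9.81% and 6.91% of these promoters and in none of the 8 windows.

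Sugp1 was at 158, 119, 134 and 122 normalised counts in NA1 to NA4 and at 129, 90.6, 108 and 107 in WT1 to WT4. The groups overlapped, since WT1 was above NA2 and NA4. Its log2 fold change was 0.29 (SE 0.172, limma, adjusted p = 0.255), and the difference from Mau2 was not tested. Over the 8 libraries, the tested genes outside the 10 whose log2 levels ran most closely with Mau2 were Runx3 (Pearson r = 0.991), Mrps5 (r = 0.99) and Csnk1e (r = 0.99). These points share libraries and fall into the same pair of groups, so any gene with a steady difference between the groups has a high r.

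Nipbl (ENSMUSG00000022141, chr15:8290617-8444463, minus strand) encodes the large loading factor that also drives loop extrusion. It was at 358, 413, 359 and 432 normalised counts in NA1 to NA4, and at 275, 269.5, 196 and 277 in WT1 to WT4. All NA libraries were above all WT libraries, and WT3 was the lowest. The means were 391 ± 37.6 and 254 ± 39.2 (SD, n = 4 each), a ratio of 1.54. Nipbl had a log2 fold change of 0.63 (SE 0.135, 95% interval 0.34 to 0.92, limma, adjusted p = 0.00619). Without NA4 and WT4 it was 0.62 and missed the threshold (limma, adjusted p = 0.0628), the sole alternative of 23 in which it did.

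The summed level of both loading genes was 681, 826, 766 and 756 normalised counts in NA1 to NA4 and 427, 402, 306 and 398 in WT1 to WT4, again with no overlap. The ratio of Nipbl to Mau2 normalised counts was 1.98 ± 0.24 in WT and 1.08 ± 0.194 in NA libraries (SD, n = 4 each), without passing after adjustment (exact two-sided permutation test over 70 assignments, p = 0.0286, adjusted p = 0.0571 over 6 ratios). That p is the smallest the test allows, so no larger difference could have passed with the other p-values as they were. Per kilobase of the median transcript the ratio was 0.862 in WT and 0.471 in NA, and per kilobase of the longest transcript it was 1.12 and 0.607, so which loading gene was higher in WT turned with the length used.

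Of the ring genes, only Rad21 passed the test, and it did so close to the threshold. Rad21 (chr15:51962240-51991747, minus strand) encodes the subunit that closes the ring and is cut when sister chromatids separate. It was at 982, 1114, 1071 and 1221 normalised counts in NA1 to NA4, and at 972, 682, 885 and 859 in WT1 to WT4. The groups did not overlap, but NA1 and WT1 almost touched and WT2 was far below the other WT libraries. The means were 1097 ± 99.4 and 850 ± 122 (SD, n = 4 each), a ratio of 1.29. Rad21 had a log2 fold change of 0.38 (SE 0.111, 95% interval 0.14 to 0.61, limma, adjusted p = 0.0313). It passed in 11 of 23 alternative settings, with log2 fold changes from 0.25 to 0.45. Without NA2 the adjusted p was 0.0686, without NA4 it was 0.106, without WT2 it was 0.0765 and without WT4 it was 0.0683 (limma). Without NA4 and WT4 together it was 0.194 (limma). With the trend on transcript GC content removed it was 0.101 (limma).

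Smc3 (chr19:53600398-53645833, plus strand) encodes an arm of the ring that is acetylated when cohesion is set up. It was at 371, 377, 414 and 423 normalised counts in NA1 to NA4 and at 401, 341, 322 and 359 in WT1 to WT4. The groups overlapped through WT1, and the log2 fold change of 0.16 (95% interval -0.08 to 0.39) did not pass (limma, adjusted p = 0.341). Its ring partner Smc1a, which is not among the 10 genes and lies on the X chromosome, was at 686 to 802 in NA and 725 to 747 in WT libraries, and its log2 fold change was 0.02 (95% interval -0.16 to 0.21, limma, adjusted p = 0.877).

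The STAG genes encode alternative subunits that place cohesin at different sites. Stag1 (chr9:100597798-100959375, plus strand) was at 278, 330, 379 and 352 normalised counts in NA1 to NA4 and at 353, 254, 271 and 329 in WT1 to WT4. Stag2 (chrX:42149317-42277185, plus strand) was at 524, 535, 524 and 634 in NA1 to NA4 and at 586, 576, 518 and 635 in WT1 to WT4. Both genes overlapped between the groups. The log2 fold change was 0.15 for Stag1 (95% interval -0.14 to 0.45, limma, adjusted p = 0.477) and -0.06 for Stag2 (95% interval -0.28 to 0.16, limma, adjusted p = 0.705). For the X-linked Stag2, any part of sex in its level was not tested. With the GC trend removed its log2 fold change was -0.27 (limma, adjusted p = 0.0566). The ratio of Stag2 to Stag1 averaged 1.67 ± 0.221 in NA and 1.94 ± 0.252 in WT libraries, with overlap (exact permutation test, p = 0.143, adjusted p = 0.214). The ratio of Stag2 to Rad21 was 0.533, 0.48, 0.49 and 0.519 in NA1 to NA4 and 0.603, 0.846, 0.586 and 0.739 in WT1 to WT4. These did not overlap, and p was the smallest the test allows (exact permutation test, p = 0.0286, adjusted p = 0.0571). With the other p-values as they were, no larger difference could have passed after adjustment.

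**Figure D2:**
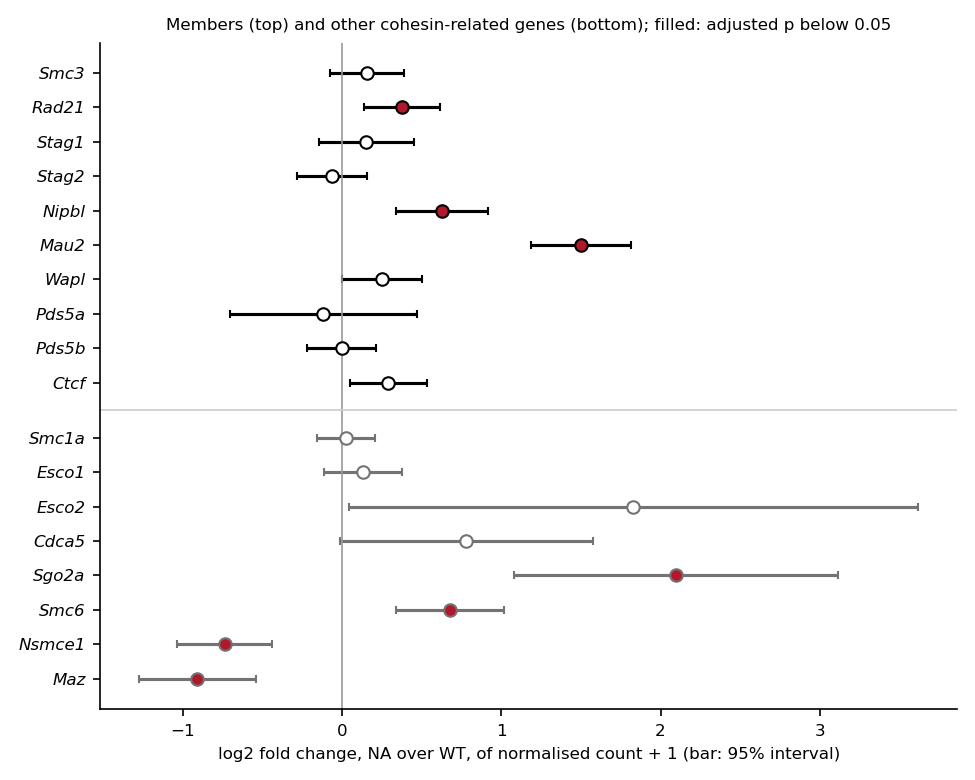
Log2 fold change, NA over WT (horizontal axis), of each cohesin and CTCF gene, with its 95% interval from limma on log2(normalised count + 1). Among the cohesin and CTCF genes, Mau2 (1.5), Nipbl (0.63) and Rad21 (0.38) passed the adjusted threshold, and Pds5a had the widest interval. Below the line are the related genes Smc1a, Esco1, Esco2, Cdca5, Sgo2a, Smc6, Nsmce1 and Maz. Of these related genes, Sgo2a, Smc6, Nsmce1 and Maz passed, and Esco2 had the widest interval (0.04 to 3.62).

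The genes for release and maintenance did not pass. Wapl (chr14:34673928-34747983, plus strand), which encodes the factor that opens the ring and frees it from DNA, was at 465, 571.5, 432 and 555 normalised counts in NA1 to NA4 and at 470.5, 388, 396 and 436 in WT1 to WT4. WT1 was above NA1 and NA3, so the groups overlapped. The log2 fold change was 0.25 (95% interval 0.002 to 0.50), which did not pass after adjustment (limma, adjusted p = 0.151). The ratio of Wapl to Nipbl was 1.3, 1.38, 1.2 and 1.28 in NA1 to NA4 and 1.71, 1.44, 2.02 and 1.57 in WT1 to WT4. Every WT library had more Wapl for each unit of Nipbl than every NA library (exact permutation test, p = 0.0286, the smallest it allows, adjusted p = 0.0571).

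Pds5b (chr5:150673739-150810690, plus strand) and Pds5a (chr5:65605721-65698273, minus strand) encode alternative proteins that bind the ring beside WAPL. Pds5b was at 418, 438, 391.5 and 450.0 normalised counts in NA1 to NA4 and at 419.9, 395, 460.0 and 427 in WT1 to WT4. Its groups overlapped fully, and its interval was narrow, around a log2 change of -0.0036 (95% interval -0.22 to 0.21, limma, adjusted p = 0.985). Pds5a was at 67.2, 57.3, 37.9 and 60.2 in NA1 to NA4 and at 39.1, 72.5, 78.6 and 55.0 in WT1 to WT4. It had the lowest level of the 10 genes and the widest interval, from -0.71 to 0.47 around a log2 change of -0.12 (limma, adjusted p = 0.803). A change of moderate size was therefore not detectable in these libraries. The ratio of Pds5b to Pds5a averaged 7.92 ± 1.73 in NA and 7.45 ± 2.42 in WT libraries (exact permutation test, p = 0.657, adjusted p = 0.657).

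Ctcf (chr8:105636568-105682922, plus strand), which encodes the zinc-finger protein that marks loop ends, was at 554.5, 643, 549 and 647 normalised counts in NA1 to NA4 and at 520.2, 517.5, 398.5 and 526.5 in WT1 to WT4. All NA libraries were above all WT libraries, as they were for 11.5% of all tested genes, and WT3 was again the lowest. The means were 598.5 ± 53.9 and 491 ± 61.6 (SD, n = 4 each). The log2 fold change of 0.29 (SE 0.114, 95% interval 0.05 to 0.54) did not pass (limma, adjusted p = 0.0921), and it passed in none of the 23 alternatives, in which the adjusted p ranged from 0.0699 to 0.297. In all, 4 of the 10 genes had groups that did not overlap, against 22% of all tested genes, each of the 4 with NA higher, and 6 overlapped. The ratio of Ctcf to Rad21 averaged 0.546 ± 0.0298 in NA and 0.589 ± 0.131 in WT libraries (exact permutation test, p = 0.629, adjusted p = 0.657).

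**Figure D3:**
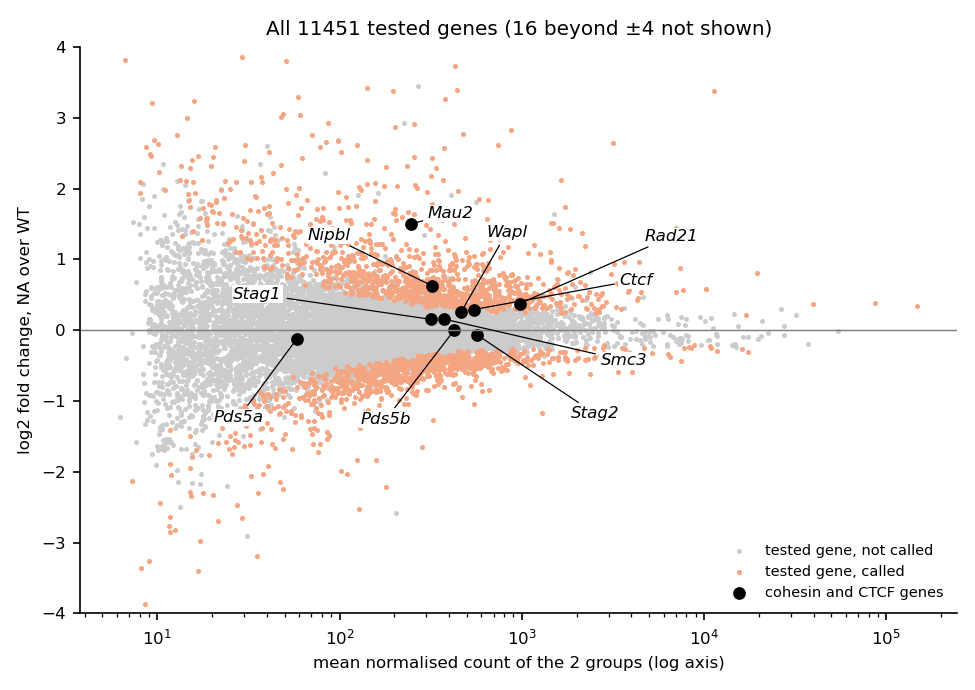
Log2 fold change, NA over WT, against the mean normalised count of both groups (log axis) for the tested genes, with called genes in orange, other genes in grey and the cohesin and CTCF genes as black points. Mau2 stands clear of the other 9, and 16 genes beyond ±4 are not drawn.

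**Figure D4:**
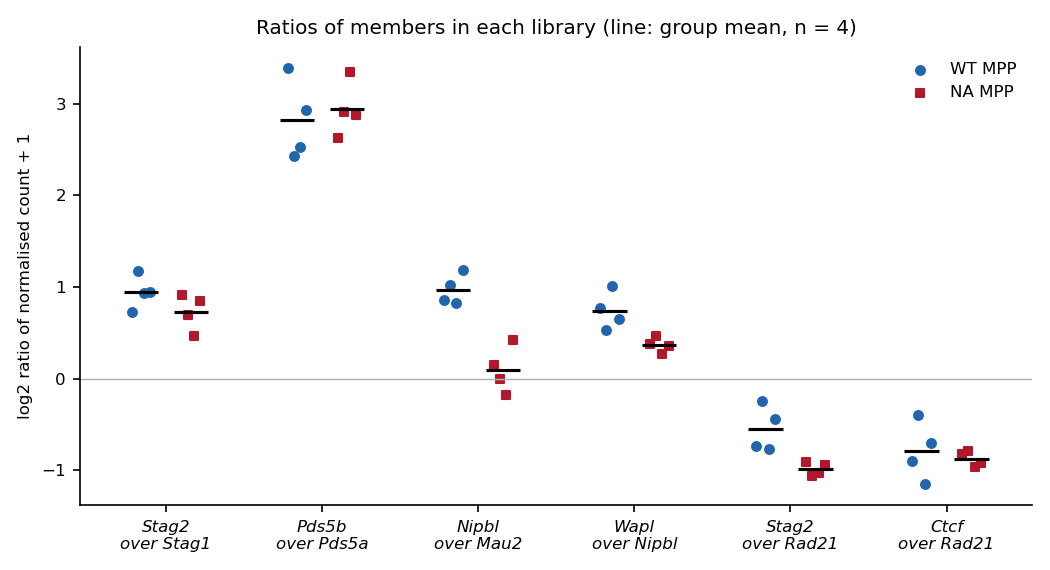
Log2 ratio of normalised count + 1 between pairs of cohesin and CTCF genes in each WT library (blue circles) and NA library (red squares), with lines for the group means (n = 4). The groups do not overlap for Nipbl over Mau2, Wapl over Nipbl and Stag2 over Rad21, and none of the 6 ratios passed after adjustment. The pairs without overlap had the smallest p the exact test allows, and no larger difference in them could have passed.

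Levels were compared between genes only per kilobase of transcript, using the median length of the annotated protein-coding transcripts of each gene. In WT MPPs Rad21 was highest at 215 ± 30.8 normalised counts per kilobase, followed by Ctcf at 130 ± 16.3, Wapl at 101 ± 9.09 and Stag2 at 97.2 ± 8.04 (SD, n = 4). Smc3 came next at 73.3 ± 6.97, then Pds5b at 61.2 ± 3.84 and Stag1 at 49.9 ± 7.8. The loading genes were low, with Mau2 at 31.4 ± 4.32 and Nipbl at 27 ± 4.16, and Pds5a was lowest at 9.37 ± 2.73. The WT ranges of the neighbours Ctcf and Wapl, Wapl and Stag2, Pds5b and Stag1, and Mau2 and Nipbl overlapped. In NA MPPs the order by these lengths was the same except for Mau2, which at 89.3 ± 12.3 was in place 5 in NA and place 8 in WT. Its NA libraries, at 78.5 to 101 per kilobase, overlapped with those of Smc3 at 76.4 to 87.2 and of Stag2 at 87.9 to 106. The order depended on the transcript length. With the longest transcript of each gene Mau2 was at 68.3 in NA (place 6) and 24 in WT (place 9, below Nipbl at 27). Wapl was then at 66.6 in WT, below Stag2 and Smc3, and at 79.7 in NA.

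Other genes of the pathway were taken by role from lists of 39 genes, of which 33 were tested. There, 2 passed as higher, Sgo2a and Smc6, and 2 passed as lower, against 10.1% and 7.87% of all tested genes. Sgo2a met the filter on low values through the NA libraries alone, so its call is no support for a direction of the list. Of the genes that acetylate cohesin, protect it or cut it, 9 of 10 were tested and 1 was higher, against 10.1% of all tested genes. It was Sgo2a, which encodes a shugoshin that shields centromeric cohesin, at 33.6, 16.9, 28.6 and 24.8 normalised counts in NA1 to NA4 and at 6.21, 5.66, 2.28 and 7.99 in WT1 to WT4 (log2 fold change 2.10, SE 0.475, limma, adjusted p = 0.00825). All WT values were under the minimum of 10, so Sgo2a was not tested in any fit that left out an NA library. Without the filter it had an adjusted p of 0.021 (limma). The acetyltransferase genes Esco1 and Esco2 had log2 fold changes of 0.13 (limma, adjusted p = 0.457) and 1.83 (95% interval 0.04 to 3.62, limma, adjusted p = 0.145). Cdca5, which encodes the cohesion factor sororin, was at 0.78 (limma, adjusted p = 0.162). Hdac8, the X-linked SMC3 deacetylase gene, was too low to test, at 11.2, 3.76, 2.77 and 2.36 in NA1 to NA4 and at 9.77, 11.3, 10.2 and 7.99 in WT1 to WT4.

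Of the related condensin and SMC5/6 complexes, 8 and 6 genes were tested and 0 and 2 passed, against 17.9% of all tested genes. Among the condensin genes 2 were higher at an unadjusted p under 0.05, against 32.5% of all tested genes in either direction. The median log2 fold change of the condensin genes was 0.0737. In the SMC5/6 complex, which acts in DNA repair, Smc6 was higher in NA, at 208 to 235 normalised counts against 107 to 177 in WT (log2 fold change 0.68, SE 0.159, limma, adjusted p = 0.0101). Nsmce1, the ubiquitin ligase subunit of that complex, was lower, at 128 to 175 in NA against 223 to 272 in WT (log2 fold change -0.74, limma, adjusted p = 0.00284, and 0.0535 without NA4 and WT4). Among 8 insulator partners 1 passed, against 17.9% of all tested genes. It was Maz, which encodes a zinc-finger protein found with CTCF at insulators. Maz was at 98 to 175 in NA against 229 to 278 in WT (log2 fold change -0.91, limma, adjusted p = 0.00259). Of 5 germline forms only Rec8 was high enough to test, and it did not pass (log2 fold change 0.36, limma, adjusted p = 0.319).

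Mitosis genes and markers of other cell types were also counted. Of 14 mitosis genes 4 were higher in NA, against 10.1% of all tested genes, and none was lower in limma, against 7.87%. At an unadjusted p under 0.05, 7 were higher and 0 lower, against 32.5% of all tested genes in either direction. The median log2 fold change of the 14 genes was 0.807. Their summed level was 1066, 927, 715 and 929.5 normalised counts in NA1 to NA4 and 745, 392, 779 and 719 in WT1 to WT4. WT2 was lowest in this sum and also in Rad21. NA1 was highest in the sum but, at 982, lowest of the NA libraries in Rad21. The groups overlapped in the sum. The summed erythroid list was 43.7 to 72.4 in NA and 156 to 234 in WT libraries, over 7 genes above 0, and Hbb-bt made up most of it, at 28.4 to 56.4 in NA and 131 to 185 in WT libraries. The granulocyte and monocyte list was 1386 to 1697 in NA and 1756 to 2565 in WT libraries, with 7 of 8 genes above 0 and Elane at 0. Most of that sum was Prtn3, at 1371 to 1677 in NA and 1711 to 2291 in WT libraries, and Mpo averaged 13.2 and 37. Ctsg and Ly6c2 were at 0 in every NA library and averaged 4.28 and 6.01 in WT libraries. Ctsg was also at 0 in WT2, and Ly6c2 in WT1 and WT2. S100a8 and S100a9 were at 64.9 and 158.3 in WT3 and at 21.3 and 47.9 in WT4. They were at most 10.65 in WT1 and WT2 and at most 18.47 in the NA libraries. The T cell markers were at 0 in all libraries, the B cell list was at 5.91 to 25.9 in NA and 5.69 to 13.3 in WT libraries with Pax5 at 0, and the mast cell list was at 17.9 to 26.1 in NA and 1.14 to 19.5 in WT libraries with Mcpt8 at 0. The megakaryocyte list was at 146.5 to 216 in NA and 155 to 221 in WT libraries. The part of these differences in the levels of Mau2, Nipbl, Rad21 and Sgo2a was not tested.

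**Figure D5:**
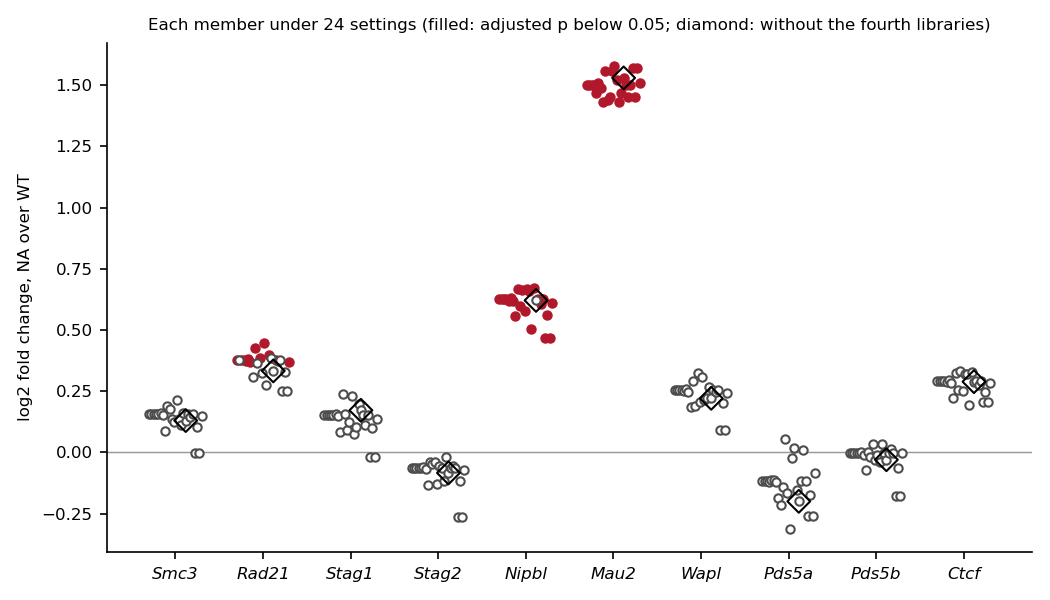
Log2 fold change, NA over WT, of each cohesin and CTCF gene under 24 settings, the reported one included; filled points passed the adjusted threshold of 0.05 and diamonds mark the fit without NA4 and WT4. Mau2 passed in all 24, and Nipbl missed it under the diamond alone.

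Genes annotated over the members could add reads if counting ignored strand, which is not stated. The first exon of Ctcf lies within the Agrp locus on the opposite strand, which encodes a neuropeptide, and Agrp averaged 0.702 normalised counts in NA and 0 in WT libraries. The pseudogene Gm5915 within Ctcf averaged 6.28 over all libraries, and the other overlapping genes found in the table were at 0.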

How the data were processed

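RNA-seq of 4 NA and 4 WT MPP libraries was analysed, grouped by sample title. Per the labels, cDNA of 1000 sorted cells was amplified and made into Nextera XT libraries, and the processing notes of the submitters name mm10, bcl2fastq, RSEM and DESeq2 without versions. The deposited signal is a normalised count, made when the authors divided RSEM expected counts by 1 size factor per library: 1 read was worth 0.888 to 1.18, and division by it gave whole numbers, within 0.1, for 98.3% to 98.9% of values over 0.5. Depth was estimated from that value, and intervals and floors of such amplified reads would cover counting error only.

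Symbols and coordinates came from GENCODE M21 (32916 of 37980 rows named). Genes that reached 10 normalised counts in 4 or more libraries were tested in limma 3.58.1 (R 4.3.3) on log2(normalised count + 1) with a mean-variance trend, two-sided, without covariates. Fold changes are on that scale, which understates those of low genes. P-values were adjusted by the Benjamini-Hochberg method over 11451 genes, with a threshold of 0.05. The 6 ratios were compared by exact two-sided permutation of 70 assignments (scipy 1.17.1), whose smallest p is 0.0286. A ratio at that p could pass after adjustment only if more of the 6 ratios than here had reached it. In simulated data 200 of 11451 genes were changed, with the same relative spread beyond counting error for every gene. There, 14% of genes changed 1.5-fold and 72% of those changed 2-fold were called, and 5.33% of calls were false. In the real data 17.9% of genes were called, so these rates may not hold for them.

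The 10 genes and the lists were chosen with earlier results of these data known. All 10 are named, and from the pathway lists those that passed plus Smc1a, Esco1, Esco2, Hdac8 and Cdca5. Rec8 and the single marker genes were named after their values were seen. Genes like Mau2 are the 3 with the highest Pearson r. Alternatives varied filter, pseudocount, scaling, libraries, block, depth, variance trend, GC and length.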

Additional observations from a re-analysis of the deposited data

Results flagged for a closer look

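In 52 groups of 4 values, 5 held a library whose gap to the nearest of the others was too large for the range of the group by Dixon's test at 95%, where chance marks about 1 in 20 groups, or 2.6 here. Stag2 was at 634.2 normalised counts in NA4 and at 523.7 to 534.9 in the other NA libraries. Nipbl was at 195.8 in WT3 and at 269.5 to 277 in the other WT libraries, and Ctcf was at 398.5 in WT3 and at 517.5 to 526.5 in the others. Hdac8 was at 11.2 in NA1 and at 2.362 to 3.76 in the other NA libraries. NA4 held 3887886 estimated reads, and the other NA libraries held 4909360 to 4916947.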

How the results depend on the processing

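Mau2 passed in all 23 alternatives (adjusted p 8.74e-06 to 0.00108) and Nipbl in 22 (0.00477 to 0.0628), while Rad21 passed in 11 (0.0203 to 0.194). The number of members called as higher was 1 without NA4 and WT4 and 2 to 3 with a single library left out, and no member was called as lower in any alternative. Without NA4 and WT4, 370 of all genes were called as higher and 145 as lower, all 515 among the reported calls, and the pathway lists held 1 higher and 1 lower. With a single library left out, 656 to 1160 genes were higher and 450 to 996 lower (450 without NA4, 479 without WT4), and the pathway lists held 1 to 3 higher and 2 to 3 lower, with 1 higher in each fit without an NA library, where Sgo2a was not tested. The pathway count of higher genes was 1 with a mean of at least 50, where Sgo2a was not tested, and 1 with the GC trend removed together with the replicate block, where the adjusted p of Smc6 was 0.0679. Without the mean-variance trend 595 genes were lower. Scaling to the total count moved the median of all genes to -0.0791 and the share of calls that were higher from 56.1% to 41.4%, and without NA4 and WT4 that share was 71.8%. Log2 fold changes near 0 changed sign: Pds5b with TMM (0.00098), with depth as covariate (0.0141) and with 1 library left out (-0.0384 to 0.0345, positive without NA1 at 0.00278, NA3 at 0.0345 or WT3 at 0.0344); Pds5a with depth (0.00913) and with 1 library left out (-0.314 to 0.0534, positive without NA3 at 0.0534 or WT3 at 0.0164); Smc1a with total-count scaling (-0.0449), GC (-0.0501, block included), length (-0.0307) and with 1 library left out (-0.00914, without NA1, to 0.0657); and, with the GC trend removed, with or without the block, Smc3 (-0.00293), Stag1 (-0.0188) and Esco1 (-0.0628). The log2 ratio of Pds5b to Pds5a ranged from -0.019 to 0.304 with 1 library left out, and was negative without NA3 (-0.019) or WT2 (-0.0165); that of Ctcf to Rad21 ranged from -0.205 to 0.0453, positive without WT2. The cause of these changes was not tested. Same-numbered libraries had deviations that correlated at 0.0874, 0.0271, 0.0131 and 0.158, and those with different numbers at -0.0943 to 0.101. Whether the number marks a shared batch is not given and was not tested. With the replicate block 2004 genes were called and no member call changed (Rad21 adjusted p = 0.0411, Nipbl 0.00673, Mau2 0.000174). With it the exact sign-flip test of ratios cannot go below 0.125, nor the exact test with 1 library left out below 0.0571. The planned count tests on recovered reads were not run, because some values were fractional and whole reads could not be recovered for all of them; limma-voom on estimated reads, chosen after seeing the data, called 2033 genes and the same 3 members.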
